A study of Mus musculus with 25 samples.

Results

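The 35 genes described here encode proteins that copy DNA in S phase. They were taken by symbol from the 55450 gene rows of the deposited count table, and each symbol matched 1 row. They were ordered in 7 steps: origin licensing (10 genes), helicase activation (6), polymerases and primase (6), sliding clamp and its loader (5), strand protection and lagging strand maturation (3), deoxynucleotide supply (3) and chromatin assembly behind the fork (2). All 35 were protein-coding genes, passed the filter on low counts and entered the test.

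The tumours were B2905 (M4) mouse melanomas, all from 1 cell line implanted in C57BL/6 mice, and each tumour came from a different mouse. Antibody treatment at 10 mg/kg began once tumours averaged 75 mm3. The 5 controls received an isotype IgG2b, and the other 20 tumours received anti-CTLA-4, an antibody against a receptor that restrains T cells. The anti-CTLA-4 tumours were sorted by the change in their size 10 to 11 days after the last dose into 6 non-responders, which grew, 6 stable tumours, which kept their size, and 8 responders, which shrank. Change in tumour size was thus the property that defined these 3 groups. Age and sex of the mice were not stated.

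DNA replication starts at origins, where ORC, CDC6 and CDT1 load the MCM2-7 ring on DNA in G1. In S phase MCM10, CDC45 and the GINS complex turn the ring into an active helicase, polymerase alpha-primase lays down primers, and polymerases delta and epsilon extend them while held by the PCNA clamp. Many of these genes are transcribed once per cell cycle under E2F transcription factors, so in a mixed tissue their RNA level is widely used as a readout of cycling cells.

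The promoter sequences are shown because the genes moved together and E2F sites are a known feature of this class. RefSeq windows on GRCm38.p6, 250 bases before to 50 after the transcription start, were matched for 28 of the 35 genes. The letters TTTCCCGC, TTTGGCGC, TTTCGCGC or TTTGCCGC, on either strand and allowing overlaps, occurred in the windows of 12 of these 28 genes (42.9%), against 2.61% of all 27025 genes with a window. The 12 were Orc1, Cdc6, Cdt1, Mcm3, Mcm5, Mcm6, Mcm7, Gins3, Pola1, Pold1, Rfc3 and Lig1. CCAAT occurred in 18 of 28 genes (64.3%) against 41.1% of all genes, and TTTGAA in 4 of 28 (14.3%) against 20.2%. A match describes letters in a window and says nothing of binding. The 160 bases before the start are given for 4 holders of the E2F letters and for Pola2, which held none and whose RNA was not called lower in any comparison. Capitals mark the E2F letters.
Mcm5, chr8:75109349-75109508, plus strand: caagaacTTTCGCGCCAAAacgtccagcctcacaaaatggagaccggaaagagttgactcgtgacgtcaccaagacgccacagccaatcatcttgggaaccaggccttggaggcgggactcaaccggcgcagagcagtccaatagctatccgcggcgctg
Mcm6, chr1:128359706-128359865, minus strand: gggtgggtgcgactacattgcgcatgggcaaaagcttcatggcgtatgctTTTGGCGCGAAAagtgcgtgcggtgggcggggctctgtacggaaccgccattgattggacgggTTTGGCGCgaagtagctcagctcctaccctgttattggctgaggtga
Cdc6, chr11:98907991-98908150, plus strand: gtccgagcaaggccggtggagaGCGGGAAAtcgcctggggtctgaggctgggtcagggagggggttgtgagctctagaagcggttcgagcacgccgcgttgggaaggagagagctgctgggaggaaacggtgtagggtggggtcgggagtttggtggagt
Pola1, chrX:93632156-93632315, minus strand: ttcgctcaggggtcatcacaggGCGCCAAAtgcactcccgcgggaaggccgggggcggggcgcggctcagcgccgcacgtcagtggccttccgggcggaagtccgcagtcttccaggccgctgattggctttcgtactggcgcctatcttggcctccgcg
Pola2, chr19:5964207-5964366, minus strand: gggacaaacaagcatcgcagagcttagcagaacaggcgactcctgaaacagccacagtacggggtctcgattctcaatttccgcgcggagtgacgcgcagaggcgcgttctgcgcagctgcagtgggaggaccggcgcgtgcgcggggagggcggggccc
In Mcm5 and in the distal site of Mcm6, matches on the 2 strands overlap and run together in 1 block of capitals. Gins3 and Pold1, whose differences were small, also held the letters, while 16 matched genes held none, among them Mcm2, Pcna, Rrm1 and Rrm2, all called lower in responders than in non-responders.

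Estimated counts per tumour totalled 8.76 M to 34.3 M. Protein-coding genes took 82.9% to 89.2% of counts in the 17 control, non-responder and stable tumours but 23.8% to 87.0% in responders, with responder 1 (23.8%) and responder 4 (54.2%) lowest. The 35 genes together took 0.184% ± 0.0203 (SD, n = 5) of protein-coding counts in controls, 0.155% ± 0.0427 (n = 6) in non-responders, 0.0902% ± 0.00783 (n = 6) in stable tumours and 0.0848% ± 0.00865 (n = 8) in responders. No gene was at 0 in any tumour, and 3 of 875 values were under 10 counts, the lowest being 6 counts of Orc1 in responder 6. The labels carry a running number that goes by group, and what it marks was not stated.

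Levels are given as CPM, the count of a gene relative to the TMM-scaled library total, and averages over genes as mean log2 CPM. Averaged over the 35 genes, log2 CPM was 4.89 ± 0.19 (SD, n = 5) in controls, 4.58 ± 0.39 (n = 6) in non-responders, 3.92 ± 0.15 (n = 6) in stable tumours and 3.69 ± 0.14 (n = 8) in responders. All 6 stable tumours and all 8 responders lay below every non-responder, whereas responders and stable tumours overlapped. On CPM the order control, non-responder, stable, responder held for the group means of 26 of the 35 genes, and controls were highest for 32. The exceptions to a control maximum were Pold1 and Gins3, highest in non-responders, and Pola2, highest in responders. On the deposited RPKM values (read counts scaled by gene length and library size) the last step of the order turned for some of the 26 genes. Stable and responder means were 8.89 and 9.96 RPKM for Mcm7 and 2.64 and 3.15 for Cdc45. Other genes kept the step, such as Mcm3 (8.03 and 6.44 RPKM) and Pcna (41.2 and 24.6 RPKM). Within groups, non-responder 3 had the highest value for 33 of 35 genes, control 3 the lowest for 23 and stable 3 the lowest for 22. The same counts over all tested genes were not taken, so these may not be particular to the replication genes. Non-responders were the most varied group, with a median SD over the genes of 0.42 log2 units against 0.23 in controls, 0.20 in stable tumours and 0.29 in responders. In bulk tissue, fewer cells expressing a gene and less RNA per cell cannot be told apart.

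**Figure D1:**
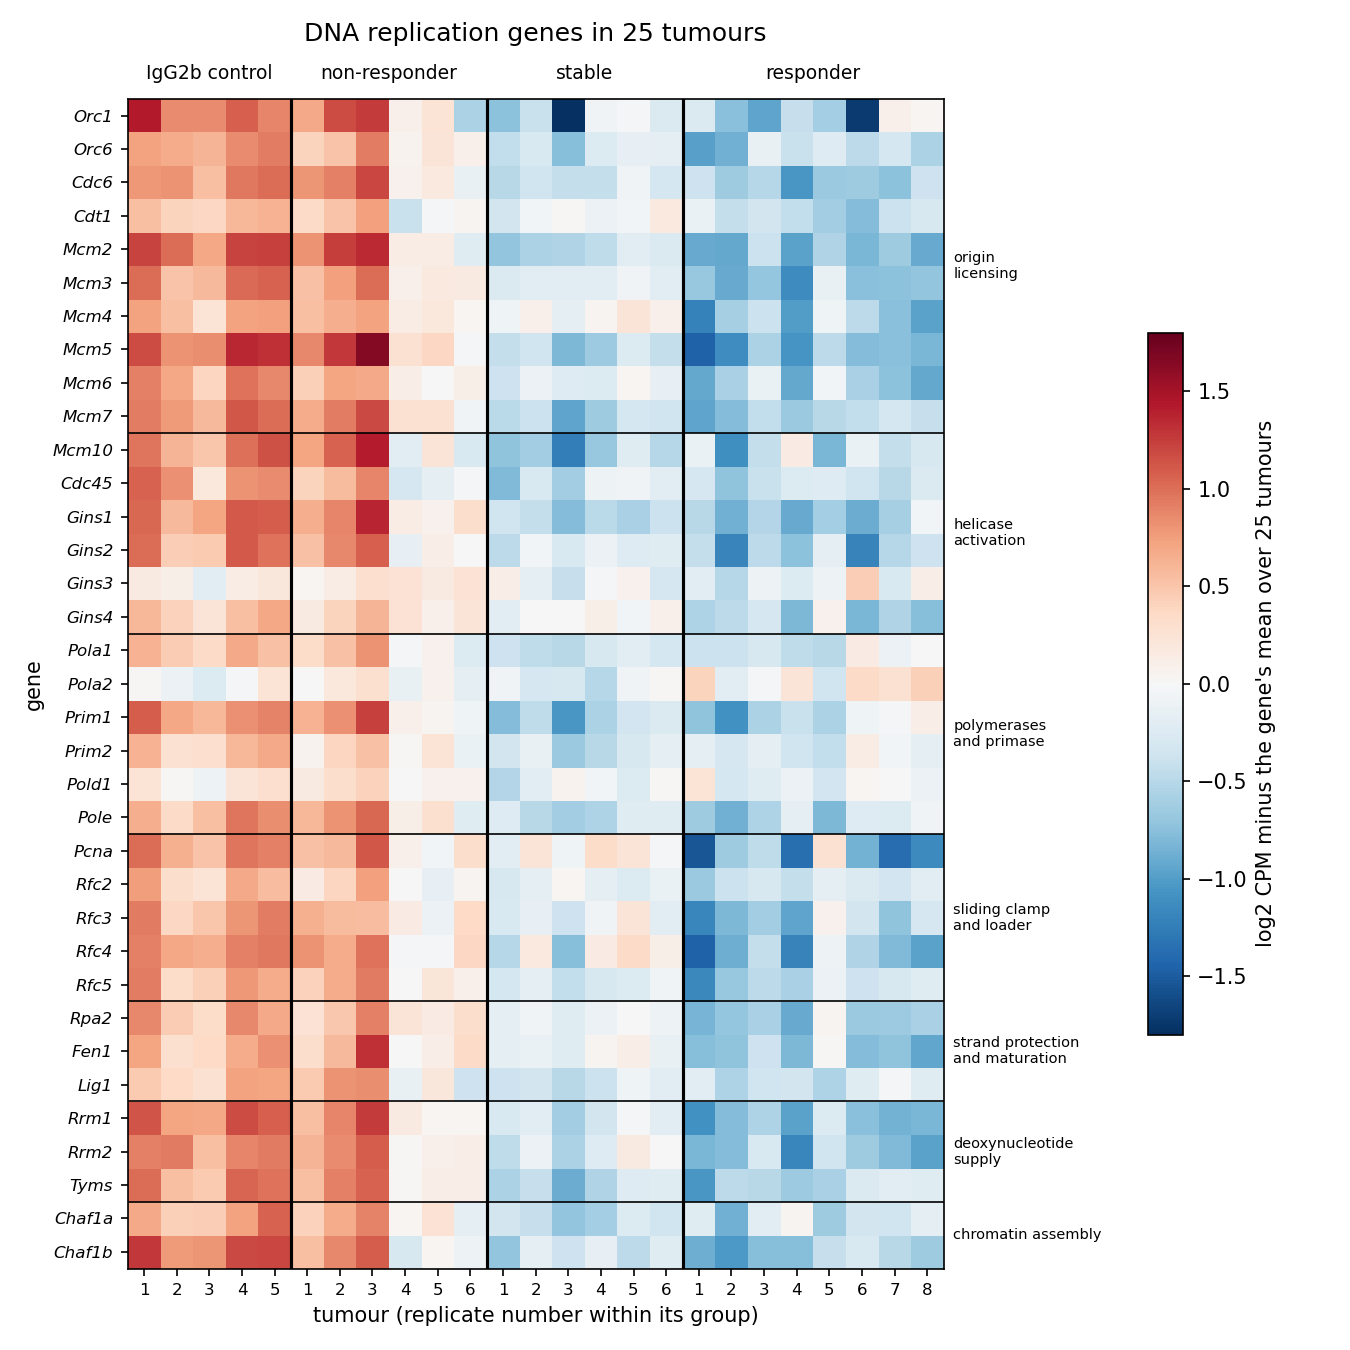
Heat map of the 35 genes (rows, by replication step) in the 25 tumours (columns, by group), coloured by log2 CPM minus the gene's mean over the 25 tumours. Controls and non-responders 1 to 3 are mostly red, non-responders 4 to 6 are near the mean, and stable tumours and responders are mostly blue, with Gins3, Pola2 and Pold1 pale throughout.

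Responders against non-responders asks how tumours that shrank under anti-CTLA-4 differed from those that grew. The share of replication genes called lower was 33 of 35, and none was called higher (edgeR quasi-likelihood test, Benjamini-Hochberg adjusted p under 0.05 over 18031 genes). Of all tested genes 23.8% were called lower in this comparison, and 25.2% higher. The median log2 fold change of the 35 genes was -0.98, against 0.05 over all tested genes, and 15 genes were at least 2-fold lower. The share of all tested genes at least 2-fold lower was not taken, so the count of 15 may not be particular to these genes. For 18 genes every responder lay below every non-responder, against 2.94% of all tested genes. Adjusted for protein-coding share as a term in the fit, 27 of 35 were called lower and none higher. Of all tested genes 10.0% were called in either direction, 916 of these 1810 being higher.

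All 10 licensing genes were called lower, with a median log2 fold change of -1.12. Mcm6, a subunit of the ring with the highest mean CPM of this step, measured 136, 118, 95.4, 143 and 133 CPM in controls. It ranged from 73.4 through a median of 88.7 to 119 CPM in non-responders, from 56.2 through 63.8 to 74.9 in stable tumours and from 38.4 through 46.1 to 70.6 in responders. No responder reached the lowest non-responder, and the log2 fold change was -0.94 ± 0.15 (SE, edgeR adjusted p = 8.68e-05). Mcm5, another ring subunit, had the largest change of the 35 genes. Its controls measured 85.4, 66.1, 67.7, 97.1 and 94.5 CPM, and non-responders ran from 37.4 through 59.1 to 120 CPM. Responders ran from 13.8 through 21.8 to 27.4 CPM, again without overlap (log2 fold change -1.70 ± 0.20, SE, edgeR adjusted p = 9.51e-06). Mcm2 came next in size, with controls at 135, 117, 93.7, 135 and 137 CPM. Its non-responders spanned 49.99 to 147 CPM (median 82.5) and its responders 29.9 to 44.6 CPM (median 31.9), a log2 fold change of -1.43 ± 0.19 (SE, edgeR adjusted p = 1.71e-05). The other ring genes Mcm3, Mcm4 and Mcm7 changed by -1.18, -1.04 and -1.15, and the loaders Orc1, Orc6, Cdc6 and Cdt1 by -1.09, -0.86, -1.19 and -0.67. Orc1, the gene of this step with the fewest counts, also differed between scales. Its mean RPKM was highest in responders at 1.23, against 1.12 for controls, 1.01 for non-responders and 0.565 for stable tumours. On unfiltered log2(RPKM + 1) its difference between responders and non-responders turned to 0.14 (limma adjusted p = 0.405), and the cause was not tested.

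Of the 6 helicase activation genes 5 fell. Gins4, a GINS subunit with the highest mean CPM of this step, measured 26.8, 23.6, 20.8, 25.8 and 28.7 CPM in controls, 18.8 to 27.0 (median 20.9) in non-responders, 15.4 to 19.0 (median 17.7) in stable tumours and 10.0 to 18.6 (median 12.1) in responders. No responder reached the lowest non-responder, responder 5 being the highest at 18.6 CPM, and the log2 fold change was -0.79 ± 0.12 (SE, edgeR adjusted p = 7.52e-05). Gins1, Gins2, Mcm10 and Cdc45 changed by -1.24, -1.07, -0.98 and -0.65. Gins3, the fourth GINS subunit, did not pass. Its controls were at 8.93, 8.55, 7.00, 8.79 and 9.16 CPM, its non-responders at 8.19 to 9.88 (median 9.25), its stable tumours at 5.96 to 8.65 (median 7.47) and its responders at 5.61 to 10.9 (median 7.19). The highest and the lowest value of all 25 tumours were both responders, and the difference was -0.28 ± 0.13 on the log2 scale (SE, edgeR adjusted p = 0.073).

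The 6 polymerase and primase genes had the smallest median log2 fold change of the 7 steps, -0.45, with 5 genes called lower. Pola1, the catalytic subunit of polymerase alpha, measured 52.3, 46.2, 42.7, 54.2 and 48.6 CPM in controls. It ran from 28.5 through 39.1 to 59.0 CPM in non-responders, from 23.9 through 26.6 to 29.3 in stable tumours and from 23.8 through 26.7 to 37.3 in responders. Responders and non-responders overlapped, and the change was -0.52 ± 0.13 (SE, edgeR adjusted p = 0.00322). Pola2, the regulatory subunit of the same enzyme, went the other way by sign without passing the test. Its controls measured 20.2, 18.5, 16.9, 19.5 and 23.6 CPM, its non-responders 17.8 to 24.4 (median 20.5), its stable tumours 14.0 to 20.3 (median 17.7) and its responders 15.5 to 26.8 (median 23.8). The log2 difference was 0.10 ± 0.12 (SE, edgeR adjusted p = 0.496), and it was -0.11 after adjusting for protein-coding share. Pold1, the catalytic subunit of polymerase delta, was at 26.7, 22.8, 21.0, 26.4 and 27.6 CPM in controls, at 22.7 to 29.9 (median 24.5) in non-responders, at 15.5 to 23.5 (median 20.6) in stable tumours and at 17.6 to 26.6 (median 20.8) in responders. Its change was -0.28 ± 0.11 (SE, edgeR adjusted p = 0.0317). The Pold1 call was lost in 11 of 36 alternatives, among them the fits without non-responder 2 or 3 or without responder 2, 3 or 5. Prim1 and Prim2, the primase pair, changed by -0.90 and -0.39, and Pole, the catalytic subunit of polymerase epsilon, by -0.92.

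All 5 clamp and loader genes fell. Pcna, the sliding clamp, measured 141, 110, 101, 138 and 133 CPM in controls, 68.2 to 154 (median 94.9) in non-responders, 61.3 to 89.1 (median 76.0) in stable tumours and 24.3 to 85.5 (median 35.7) in responders. The top responder value was responder 5, and the other 7 lay between 24.3 and 51.6 CPM, below every stable tumour and every non-responder. The log2 fold change was -1.24 ± 0.23 (SE, edgeR adjusted p = 0.000248). The loader subunits Rfc2, Rfc3, Rfc4 and Rfc5 changed by -0.56, -0.92, -1.22 and -0.87. At the lagging strand, Fen1, the flap nuclease, changed by -1.12 and Rpa2, which coats single strands, by -0.99. Lig1, the ligase that seals the fragments, measured 34.6, 31.9, 29.9, 40.8 and 40.6 CPM in controls, 19.3 to 44.1 (median 31.5) in non-responders, 17.5 to 23.6 (median 19.4) in stable tumours and 16.8 to 24.2 (median 20.5) in responders. Responders overlapped with non-responders 4 and 6, and its change was -0.67 ± 0.15 (SE, edgeR adjusted p = 0.00121).

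Nucleotide supply fell as well. Rrm1, the large subunit of ribonucleotide reductase, measured 152, 114, 112, 156 and 147 CPM in controls. It ran from 71.3 through 89.5 to 167 CPM in non-responders, from 44.9 through 59.0 to 68.3 in stable tumours and from 32.6 through 39.8 to 58.3 in responders. No stable tumour or responder reached the lowest non-responder, and the responder change was -1.30 ± 0.17 (SE, edgeR adjusted p = 1.47e-05). The small subunit Rrm2 changed by -1.22 and Tyms, thymidylate synthase, by -0.98. For chromatin assembly, Chaf1a, the large subunit of the CAF-1 histone chaperone, measured 32.3, 27.0, 27.2, 33.1 and 41.9 CPM in controls, 17.8 to 37.3 (median 25.3) in non-responders, 12.3 to 17.0 (median 15.3) in stable tumours and 11.0 to 20.8 (median 16.6) in responders. Its change was -0.71 ± 0.15 (SE, edgeR adjusted p = 0.000902), and that of its partner Chaf1b was -1.08. Of the 33 calls, 26 held in every alternative run without a fold threshold. The other 7 were Pold1 and the genes lost after adjusting for protein-coding share, Cdc45, Orc1, Pola1, Prim1, Prim2 and Rfc2, of which Cdc45 and Orc1 were also lost on unfiltered RPKM values, where Orc1 changed sign.

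**Figure D2:**
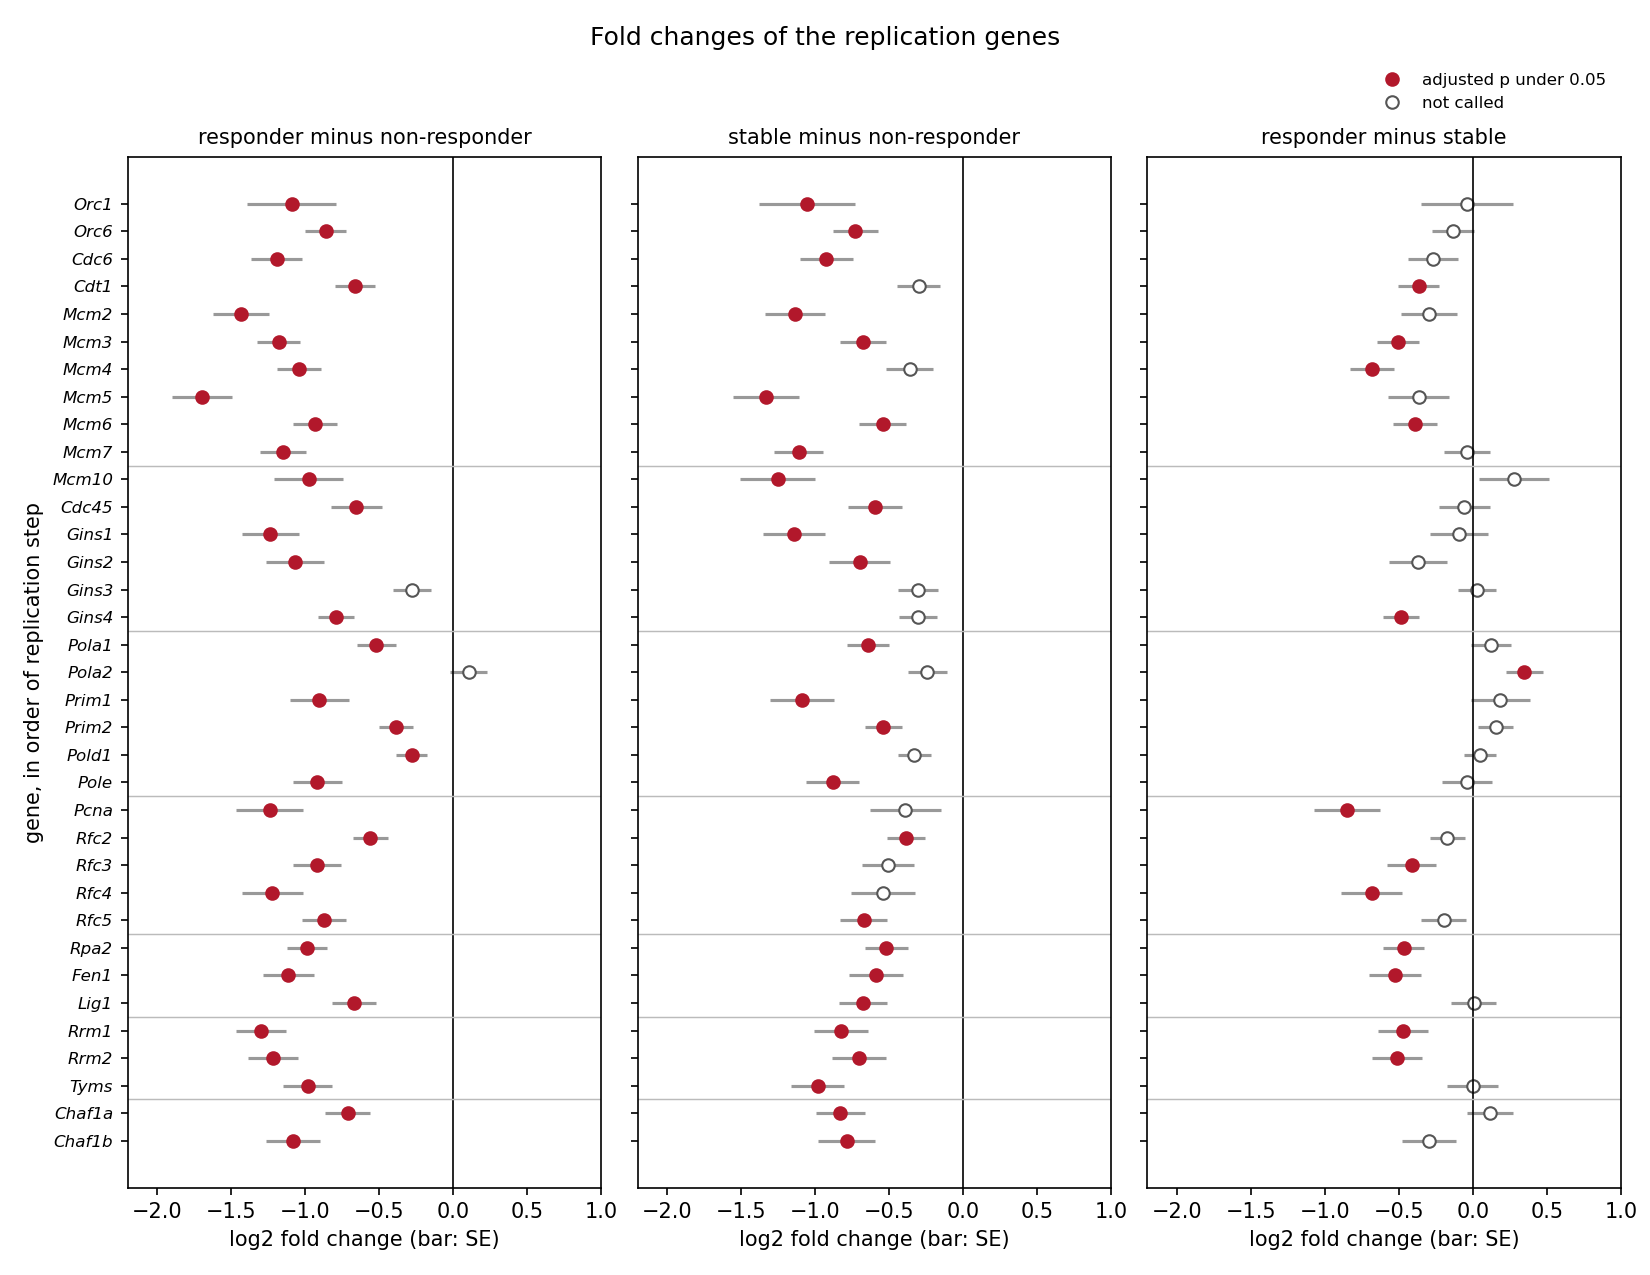
Log2 fold change (point) and its SE (bar) of each gene in 3 comparisons, with genes in order of replication step. Filled red points passed adjusted p under 0.05, which was 33 genes for responders against non-responders, 26 for stable tumours against non-responders and 13 for responders against stable tumours.

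Marker levels of cell types, among them the melanocyte lineage of the implanted melanoma line itself, were measured in the same tumours. All 8 melanocyte genes (Mlana, Dct, Pmel, Tyr, Tyrp1, Slc45a2, Mitf, Sox10) were called lower in responders and in stable tumours than in non-responders. Control tumours had a summed level of 10684 to 17512 CPM. Non-responders spanned 726 to 14061 CPM, stable tumours 228 to 505 CPM and responders 304 to 725 CPM. Summed levels of 9 T cell genes were 9.53 to 29.6, 25.9 to 218, 156 to 246 and 91.9 to 275 CPM in the same order of groups, and those of 8 macrophage genes were 562 to 992, 761 to 2411, 2162 to 3403 and 958 to 3012 CPM. The 5 endothelial genes summed to 124 to 180, 130 to 258, 72.7 to 129 and 38.6 to 93.6 CPM. All 5 endothelial genes were called lower in responders than in non-responders, and 3 of 5 in stable tumours. Sums over 7 fibroblast genes were 3368 to 6331, 6006 to 13842, 7591 to 15493 and 7090 to 16056 CPM. Between responders and non-responders 2 of 9 T cell genes were called higher, 1 of 8 macrophage and 1 of 7 fibroblast genes lower, 1 of 4 B cell genes higher, 2 of 5 skeletal muscle genes lower and 0 of 4 keratinocyte genes. Between stable tumours and non-responders 2 T cell and 2 macrophage genes were called higher, and no fibroblast, B cell, skeletal muscle or keratinocyte gene. Between responders and stable tumours 7 of 8 macrophage, 4 of 5 endothelial, 2 of 7 fibroblast and 1 of 5 skeletal muscle genes were called lower, and no gene of the other lists. Of all tested genes 23.8% were called lower and 25.2% higher between responders and non-responders. The shares were 7.86% and 7.08% between stable tumours and non-responders, and 17.8% and 20.5% between responders and stable tumours. Some counts, such as 2 of 9 T cell genes higher in responders than in non-responders, were near these shares. The part of the marker genes in the results on replication genes was not tested.

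Stable tumours against non-responders asks the same for tumours that neither grew nor shrank. The count called lower was 26 of 35 and none was higher, where 7.86% of all tested genes were called lower and 7.08% higher. The median log2 fold change was -0.67, against -0.02 over all tested genes, and all 35 differences were negative. For 12 genes every stable tumour lay below every non-responder, against 2.94% of all tested genes. Mcm5 again led, at 21.6 to 32.0 CPM (median 28.2) in stable tumours, with a change of -1.33 ± 0.22 (SE, edgeR adjusted p = 0.00160). Mcm10, which helps start the helicase, measured 17.9, 14.1, 13.1, 18.3 and 20.3 CPM in controls, 7.64 to 24.4 (median 12.9) in non-responders and 3.90 to 7.95 (median 5.84) in stable tumours, a change of -1.25 ± 0.25 (SE, edgeR adjusted p = 0.00390). The ranges of Mcm10 overlapped only at the edge. The 9 genes not called were Cdt1, Mcm4, Gins3, Gins4, Pola2, Pold1, Pcna, Rfc3 and Rfc4, so 3 of the 5 clamp and loader genes missed the threshold. The smallest differences were those of Pola2, -0.24 ± 0.13 (SE, edgeR adjusted p = 0.229), and Cdt1, -0.30 ± 0.14 (SE, edgeR adjusted p = 0.171). Leaving out non-responder 3, the tumour with the highest levels, left 19 genes called, with 8.43% of all tested genes called in either direction against 14.9% with it.

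Responders and stable tumours differed less from each other. Of the 35 genes 12 were called lower in responders and 1 higher, where 17.8% of all tested genes were called lower and 20.5% higher. For no gene did all responders lie below all stable tumours. This was so for 0.288% of all tested genes, a share too low for this count to tell the 35 genes from others. The median log2 fold change was -0.20, against 0.01 over all tested genes. Those called lower were the clamp and loader genes Pcna, Rfc3 and Rfc4, the licensing genes Cdt1, Mcm3, Mcm4 and Mcm6, Fen1, Rpa2, Rrm1, Rrm2 and Gins4. None of the 13 calls held in every alternative. Of 36 alternatives, Rfc3 was called in 6, Mcm6 in 16, Cdt1 in 20 and Rrm1 in 21, whereas Pcna, Mcm4 and Gins4 were each called in 35. Pcna had the largest difference, -0.85 ± 0.22 (SE, edgeR adjusted p = 0.00744), followed by Rfc4, -0.68 ± 0.21 (SE, edgeR adjusted p = 0.0140). Rfc4 was at 3.96 to 8.53 CPM (median 7.33) in stable tumours and at 2.45 to 6.29 (median 3.78) in responders. Averaged over the 5 clamp and loader genes, 7 of 8 responders lay below every stable tumour, responder 5 being the exception. Over the 6 polymerase and primase genes the order was reversed, with 4.21 ± 0.23 log2 CPM (SD, n = 8) in responders and 4.09 ± 0.13 (n = 6) in stable tumours.

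The 1 gene called higher was Pola2, 0.35 ± 0.13 (SE, edgeR adjusted p = 0.0331), a call lost in 11 of 36 alternatives. They included leaving out stable 2, 3 or 4 or responder 1, 4, 6, 7 or 8. Mcm10 came next by size, 0.28 ± 0.24 (SE, edgeR adjusted p = 0.364), with Prim1 at 0.18, Prim2 at 0.15, Pola1 at 0.12, Chaf1a at 0.11, Pold1 at 0.05, Gins3 at 0.03 and Lig1 at 0.00, none of them called. The sign of Chaf1a, Pold1 and Lig1 turned after adjusting for protein-coding share, and that of Gins3 and Lig1 without the filter on low counts. The count of calls in this comparison differed between fits. Adjusted for protein-coding share, edgeR called 0 of the 35 genes and 0.0% of all genes, and 3 of the 35 had an unadjusted p under 0.05. The share of all tested genes at that unadjusted p was not taken. Without responders 1 and 4, the libraries lowest in protein-coding share, 6 genes were called lower and none higher. The share of all tested genes called in either direction went from 38.2% to 22.4%. Of these 4018 calls among 17974 tested genes, 2579 were higher. Leaving out stable 2, 4 or 5, or responder 4 or 7, one at a time, left 8 calls each, with 28.5% to 31.4% of all tested genes called.

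**Figure D3:**
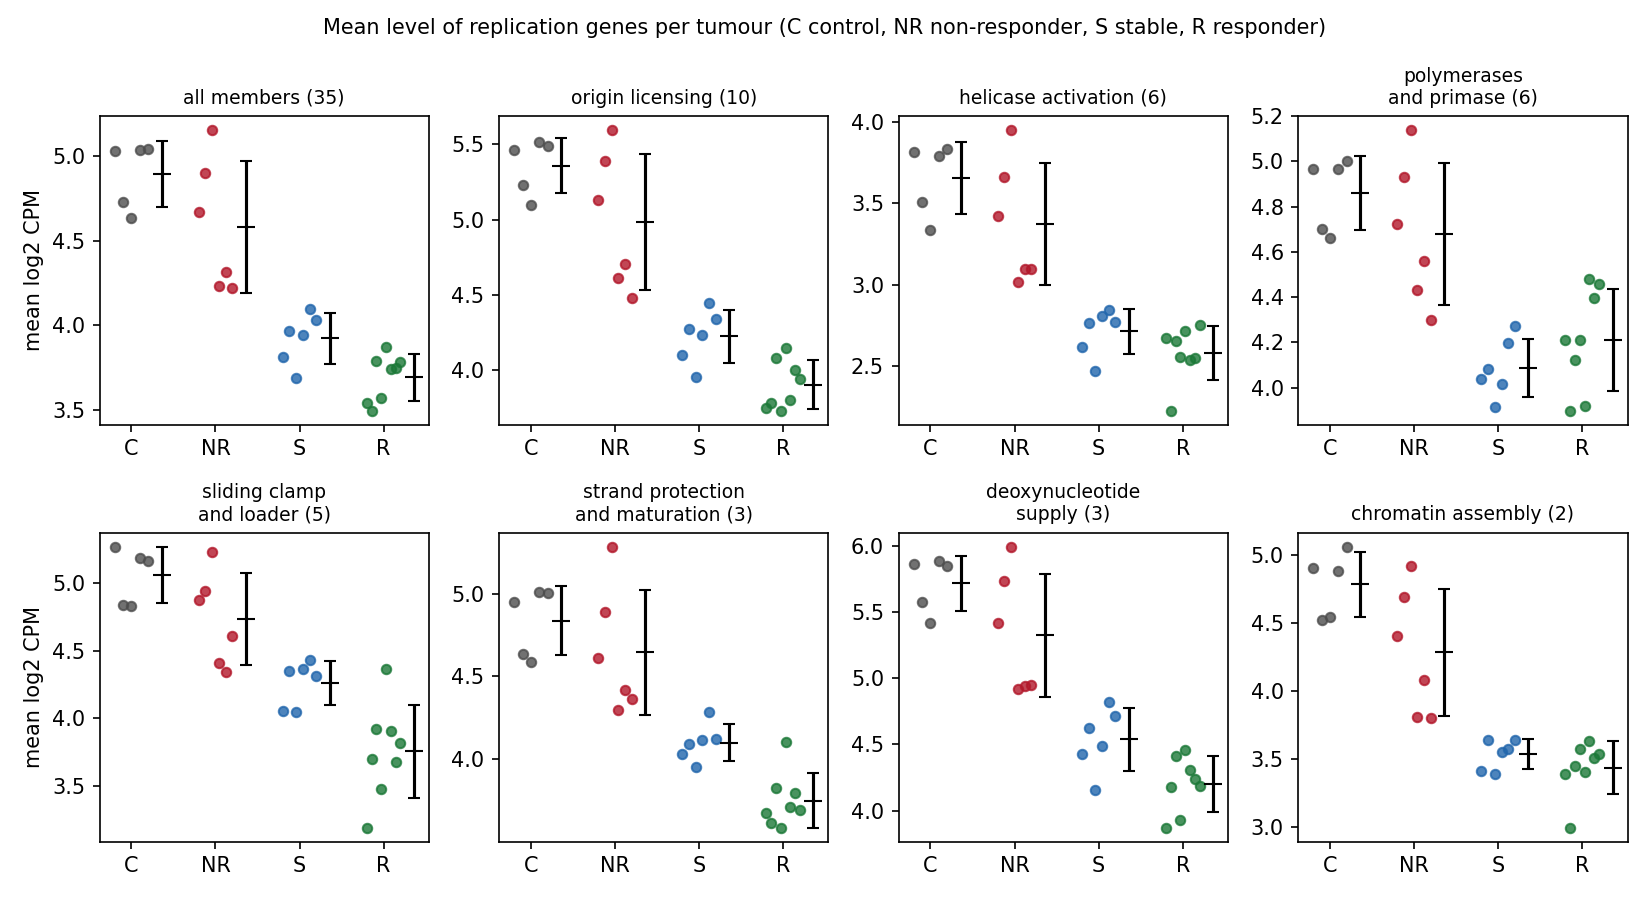
Mean log2 CPM per tumour (points) over all 35 genes and over the genes of each of the 7 replication steps, with the group mean and SD beside the points and the number of genes in brackets. Stable tumours and responders lie below every non-responder over all genes, while in the polymerase and primase panel 3 of 8 responders overlap the non-responders. In the clamp and loader panel 3 of 6 stable tumours and 7 of 8 responders lie below every non-responder.

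Against the IgG2b controls, few of the genes were called in non-responders. Of the 35 genes 1 was called lower, near the 3.29% of all tested genes called lower. None was called higher, where 10.6% of all tested genes were. The median log2 fold change was -0.29 against 0.04 over all tested genes. An unadjusted p under 0.05 was reached by 8 of the 35 genes, no larger a share than the 5123 of all 18031 tested genes. For no gene did all non-responders lie below all controls, near the 1.41% of all tested genes. The called gene was Chaf1b, the middle subunit of CAF-1, at 27.7, 19.5, 19.8, 26.1 and 26.4 CPM in controls and 9.43 to 24.4 (median 14.2) in non-responders (-0.61 ± 0.20, SE, edgeR adjusted p = 0.0415). Cdc45, the helicase cofactor, was next at -0.49 ± 0.19 (SE, edgeR adjusted p = 0.0841). Gins3, Pola2 and Pold1 were above 0, at 0.11 ± 0.14 (SE, edgeR adjusted p = 0.645), 0.07 ± 0.14 (adjusted p = 0.781) and 0.04 ± 0.12 (adjusted p = 0.863), and the sign of Pola2 and Pold1 turned without the filter on low counts. The 6 non-responders were spread widely: their means over the 35 genes were 4.67, 4.90, 5.15, 4.23, 4.31 and 4.22 log2 CPM. Non-responder 3 exceeded every control in 23 of the 35 genes, and the share over all tested genes was not taken. Without non-responder 3, 10 genes were called lower and none higher. The share of all tested genes called in either direction went from 13.9% to 23.5%. Most of that share was higher, with 2641 of the 4237 calls among 17992 tested genes. The Chaf1b call was lost, and no gene was called, without control 1, 4 or 5 or without non-responder 1, 4, 5 or 6, with 8.56% to 13.1% of all tested genes called. Without control 3, 2 genes were called, with 11.5% of all tested genes.

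Stable tumours and controls separated almost fully. Of the 35 genes 33 were called lower and none higher, where 19.6% of all tested genes were called lower and 22.2% higher, with a median log2 fold change of -1.02 against 0.02 over all tested genes. For 32 genes every stable tumour lay below every control, against 17.2% of all tested genes. Mcm5 and Mcm2 changed most, by -1.59 ± 0.23 (SE, edgeR adjusted p = 7.48e-06) and -1.54 ± 0.21 (SE, adjusted p = 5.13e-06). Gins3, -0.20 ± 0.14 (SE, edgeR adjusted p = 0.286), and Pola2, -0.18 ± 0.14 (SE, adjusted p = 0.331), were not called, and the call of Pold1 (-0.29 ± 0.12, SE, edgeR adjusted p = 0.0492) held in 18 of 36 alternatives.

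Responders against the same controls gave 32 of 35 genes lower and none higher, where 28.9% of all tested genes were called lower and 36.1% higher. The median log2 fold change was -1.23 against 0.16 over all tested genes, and 26 genes were at least 2-fold lower. The share of all tested genes at that fold was not taken, so the count of 26 may not be particular to these genes. For 32 genes every responder lay below every control, against 15.2% of all tested genes. Mcm5 changed by -1.96 ± 0.21 (SE, edgeR adjusted p = 1.66e-07) and Mcm2 by -1.83 ± 0.20 (SE, adjusted p = 1.61e-07). Pold1 (-0.24 ± 0.11, SE, edgeR adjusted p = 0.0571), Gins3 (-0.17 ± 0.13, SE, adjusted p = 0.274) and Pola2 (0.17 ± 0.13, SE, adjusted p = 0.260) were not called. Orc1, called at -1.51, was at 0.04 on unfiltered log2(RPKM + 1) (limma adjusted p = 0.823). The sign of Pola2 turned after adjusting for protein-coding share and without the filter on low counts. These 3 comparisons share the same 5 controls, and the comparisons with non-responders share the same 6 tumours.

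Genes whose products sit in 1 complex or work at the same fork did not always move by equal amounts. Their ratios were taken per length on the deposited RPKM values (read counts scaled by gene length and library size). Some of the pairs examined are given. Polymerase alpha had a Pola1 to Pola2 log2 ratio of 0.08 ± 0.16 (SD, n = 5) in controls, -0.26 ± 0.24 (n = 6) in non-responders, -0.62 ± 0.17 (n = 6) in stable tumours and -0.83 ± 0.21 (n = 8) in responders. The catalytic subunit was thus near its partner in controls and lower than it in every stable tumour and responder. Pole and Pold1, the catalytic subunits of the leading and lagging strand polymerases, had ratios of -0.27 ± 0.16, -0.53 ± 0.33, -0.98 ± 0.34 and -1.11 ± 0.29 in the same order and numbers of tumours. The GINS pair Gins1 and Gins3 gave 0.38 ± 0.21, -0.04 ± 0.49, -0.74 ± 0.24 and -0.61 ± 0.33. Rrm1 and Rrm2 gave 0.37 ± 0.20, 0.26 ± 0.10, 0.21 ± 0.13 and 0.16 ± 0.17. Within the MCM ring the spread between the highest and lowest mean RPKM was 1.93-fold in controls, 1.79-fold in non-responders, 1.92-fold in stable tumours and 1.97-fold in responders. The lowest ring gene was Mcm4 in controls and non-responders and Mcm5 in stable tumours and responders. These ratios are descriptions and were not tested.

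**Figure D4:**
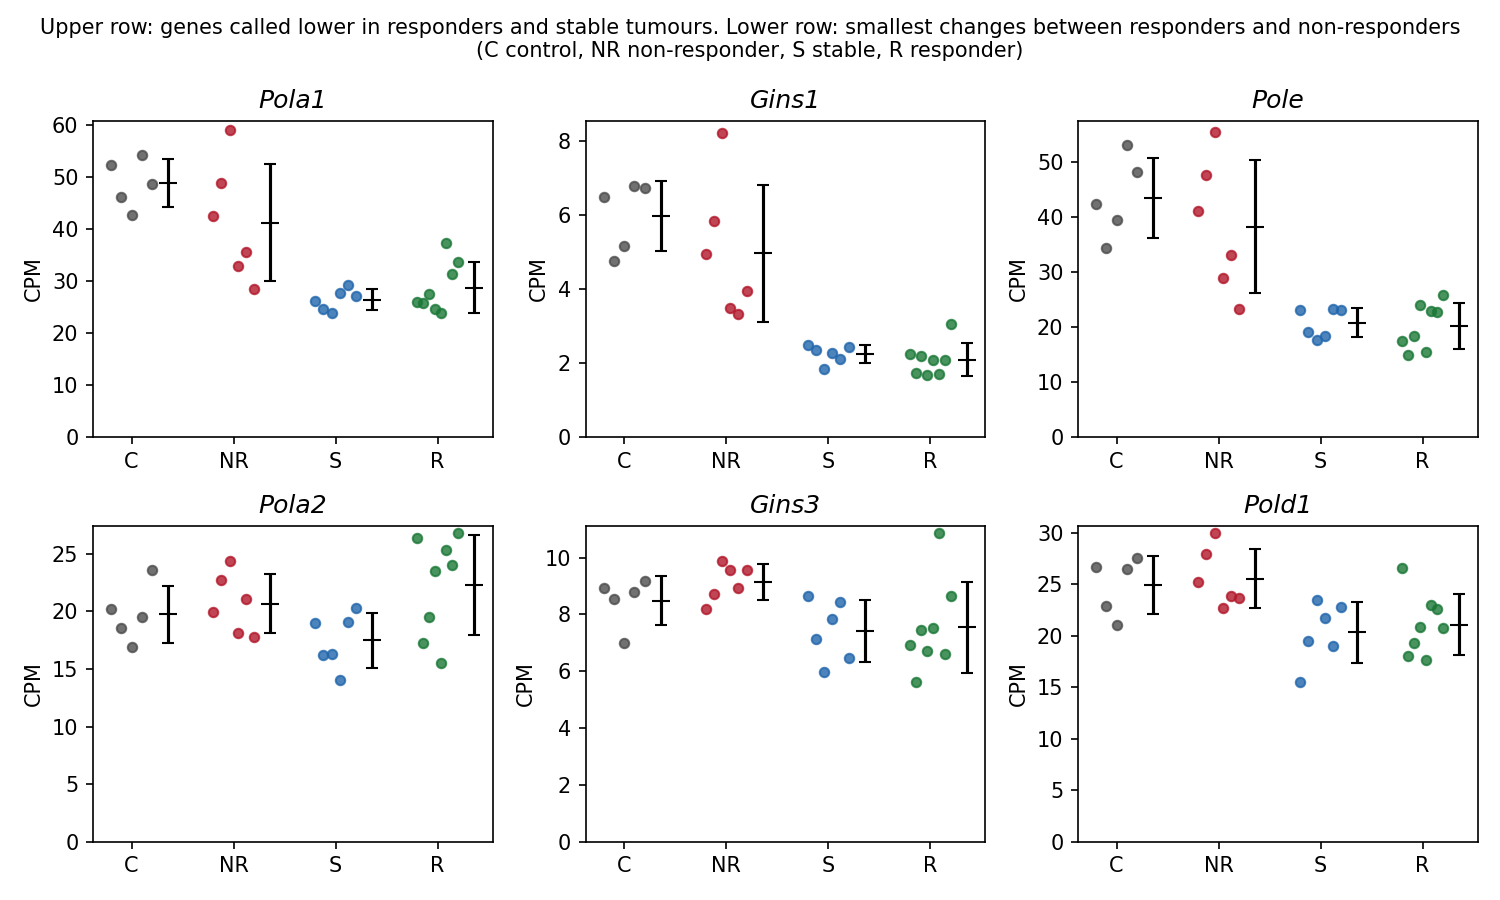
CPM per tumour (points) with group mean and SD for 3 genes called lower in responders and stable tumours (upper row) and for the 3 genes with the smallest changes between responders and non-responders (lower row). Pola1, Gins1 and Pole drop from controls to stable tumours and responders. For Pola2, Gins3 and Pold1 the responders span 15.5 to 26.8, 5.61 to 10.9 and 17.6 to 26.6 CPM. These spans start below the lowest control and non-responder and end within or above their range. Pold1 was called lower in responders than in non-responders.

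A further 68 genes of the pathway gave 44 lower and 6 higher calls for responders against non-responders, with a median log2 fold change of -0.52, beside 23.8% of all tested genes lower and 25.2% higher. Chromatin copying genes were all called lower (7 of 7), as were 6 of 7 clamp loader variants and strand protection genes, 6 of 7 other deoxynucleotide enzymes, 8 of 12 origin firing kinases and adaptors and 4 of 6 other polymerase subunits. Of the other origin and licensing factors 4 of 8 were lower. The lowest were Ccna2, cyclin A2, at -1.70 ± 0.23 (SE, edgeR adjusted p = 2.42e-05), Ccne2, a cyclin E, at -1.51 ± 0.23, Asf1b, a histone chaperone, at -1.502 ± 0.22, and Cdk2, the kinase that these cyclins activate, at -1.43 ± 0.33. Ccna2 was at 54.6 to 133 CPM (median 73.7) in non-responders and at 13.8 to 40.7 (median 24.85) in responders, without overlap.

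The 6 called higher were Samhd1, which degrades deoxynucleotides, at 0.71 ± 0.22 (SE, edgeR adjusted p = 0.0106), E2f2 at 0.55 ± 0.16, Mcm9 at 0.50 ± 0.13, E2f4 at 0.36 ± 0.11, Donson at 0.36 ± 0.12 and Rb1 at 0.24 ± 0.07. Samhd1 was at 43.6 to 91.7 CPM in controls. Its non-responders were at 80.0 to 291 CPM, its stable tumours at 295 to 400 CPM and its responders at 247 to 393 CPM. The E2F family and its pocket protein partners had 3 lower and 3 higher of 11 genes, near the shares of all tested genes. E2f1, an activating E2F, was not called (-0.04 ± 0.12, SE, edgeR adjusted p = 0.782), at 15.6 to 19.5 CPM in non-responders and 14.5 to 22.2 in responders. For stable tumours against non-responders the 68 genes gave 28 lower and 4 higher calls, beside 7.86% and 7.08% of all tested genes. For responders against stable tumours they gave 16 lower calls, near the 17.8% of all tested genes, and 6 higher calls, beside 20.5%. Non-responders against controls gave 1 and 1, beside 3.29% and 10.6%. Stable tumours against controls gave 38 and 5, beside 19.6% and 22.2%, and responders against controls 44 and 7, beside 28.9% and 36.1%. The 2 calls between non-responders and controls were Pole4 (-0.69) and Samhd1 (1.52).

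For comparison, 22 genes of mitosis were all called lower in responders (median log2 fold change -1.43) and in stable tumours (-1.07) than in non-responders, and also than in controls (-1.82 and -1.49). The shares of all tested genes called lower were 23.8% and 7.86% against non-responders and 28.9% and 19.6% against controls. Between responders and stable tumours 2 of 22 were lower, beside 17.8% of all tested genes. Between non-responders and controls edgeR called none, beside 3.29% of all tested genes called lower. An unadjusted p under 0.05 was reached by 1 of the 22 genes, beside 5123 of all 18031 tested genes. The mean log2 CPM of the mitosis genes minus that of the replication genes was 0.72 ± 0.10 (SD, n = 5) in controls, 0.59 ± 0.14 (n = 6) in non-responders, 0.18 ± 0.33 (n = 6) in stable tumours and 0.16 ± 0.19 (n = 8) in responders. The distance between the lists was thus smaller in stable tumours and responders than in controls, with no overlap between either group and the controls.

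Several genes overlap others on the opposite strand, among them Rfc4 with Eif4a2, Orc6 with Vps35 and Rfc5 with Wsb2, and Cdt1 overlaps the gene model Gm20388 on the same strand. The kit in the labels keeps strand, but the strand setting of the counting was not stated, so values of these genes are less certain. Processed copies of Pcna and Tyms took at most 122 counts in all tumours together, against 44477 for Pcna.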

How the data were processed

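RNA sequencing was analysed from 25 tumours, each from its own mouse. Per the submitters' processing notes, the tools were bcl2fastq 2.17, Trimmomatic, STAR 2.5.1 and RSEM 1.2.22, with the build mm10. The labels name a stranded total RNA kit but give the molecule as polyA RNA, which was not resolved. The authors deposited estimated counts (expected counts) per gene, not normalized, 5.64% of which were not whole. They were rounded to whole numbers. The authors also deposited RPKM values, with no statement of the gene lengths used. RPKM was used per length and on the log2(RPKM + 1) scale in an alternative.

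All 25 tumours entered 1 edgeR 4.0.16 fit (R 4.3.3) with 4 group means: genes kept by filterByExpr (18031), TMM scaling, robust quasi-likelihood F test, Benjamini-Hochberg adjustment over all tested genes, called at adjusted p under 0.05. SE is the log2 fold change divided by the square root of F. Mean log2 CPM used a prior count of 2. Alternatives were DESeq2 1.42.0, other scaling, filters, gene sets and samples, adjustment for protein-coding share, limma 3.58.1 on RPKM, a 1.5-fold threshold and leaving out each tumour. The fit was tested on simulated data. Gene positions and biotypes came from GENCODE M21, which held all 55450 identifiers.

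The genes and lists were chosen with earlier results of these data known, so no list was tested, and counts of called genes in each comparison are set beside the share of all tested genes. Genes given in full are the most abundant of each step, those with the 3 largest and 3 smallest changes, and in other comparisons the 2 highest, the 2 lowest, those against the majority sign and up to 5 called. Replicate numbers follow the order of the records and pair nothing. No 2 tumours of a group agreed within sampling noise.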

Additional observations from a re-analysis of the deposited data

Results flagged for a closer look

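Single tumours stood apart in 12 of 172 groups of 5, 6 or 8 values examined, where chance gives about 1 in 20 among independent groups. These groups share tumours, and the step means are built from the same genes, so they were not independent. The test was Dixon's ratio of the gap beside an end value to the whole range. Responder 5 stood above the other 7 responders for Pcna (85.5 CPM, others 24.3 to 51.6), Mcm3 (38.2 CPM, others 19.1 to 26.1) and Rpa2 (13.5 CPM, others 6.98 to 8.71), and for the mean of the 3 strand protection and maturation genes (4.10 log2 CPM). Responder 2 stood low for the mean of the helicase activation genes (2.23 log2 CPM, others 2.54 to 2.75) and of the chromatin assembly genes (2.99 log2 CPM, others 3.39 to 3.63). Responder 8 stood high for Gins1 (3.05 CPM, others 1.68 to 2.23).

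Stable 5 stood high for Cdc6 (6.95 CPM, others 5.12 to 5.79) and Mcm3 (40.2 CPM, others 35.2 to 36.7). Non-responder 3 stood high for Fen1 (53.7 CPM, others 21.7 to 32.4). Control 3 stood low for Gins3 (7.00 CPM, others 8.55 to 9.16) and Rrm2 (41.4 CPM, others 52.5 to 54.3). Responder 5 had the highest protein-coding share of the responders, 87.0%.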

How the results depend on the processing

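No paired analysis was possible because replicate numbers follow record order and every tumour came from another mouse. Leaving out 1 tumour at a time, the count of replication genes called ran from 32 to 34 for responders against non-responders, 19 to 29 for stable tumours against non-responders, 8 to 13 for responders against stable tumours, 0 to 10 for non-responders against controls, 31 to 33 for stable tumours against controls and 32 to 33 for responders against controls. The shares of all tested genes called ran from 40.3% to 55.9%, 8.17% to 21.1% and 28.5% to 49.3% in the comparisons among anti-CTLA-4 groups. Against controls, in the same order, they ran from 8.56% to 23.5%, 36.3% to 45.1% and 59.8% to 67.9%. At a threshold of 1.5-fold the counts of the first 5 were 17, 2, 0, 0 and 21. The share of all tested genes called at this threshold is not given, so these counts cannot be read as particular to the replication genes. For responders against stable tumours the count was 0 after adjusting for protein-coding share, 7, 8 and 7 with limma on log2(RPKM + 1), log2(RPKM + 0.1) and unfiltered RPKM, and 6 without responders 1 and 4, an alternative chosen after seeing the data. Of all tested genes, 0.0% were called after that adjustment, 40.2% on filtered log2(RPKM + 1) and 22.4% without responders 1 and 4. Fitting only the 2 groups compared gave 0 for non-responders against controls, beside 9.41% of all tested genes. The cause of these differences was not tested.

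On log2(RPKM + 1), filtered and unfiltered, the median log2 fold change was -0.68 and -0.67 for responders against non-responders, -0.76 and -0.76 for stable tumours against controls and -0.94 and -0.93 for responders against controls. Group means over the genes on that scale were 3.36, 3.14, 2.54 and 2.51 in controls, non-responders, stable tumours and responders. With protein-coding genes only, mean log2 CPM was 5.26 in controls, 4.27 in stable tumours and 4.10 in responders.

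In at least 1 alternative the sign changed for 13 of 35 genes for responders against stable tumours, 3 for non-responders against controls and 2 each for responders against non-responders and against controls. Of these Orc1 was called lower in the last 2 comparisons, at -1.09 and -1.51, and was 0.1425 and 0.0433 on unfiltered log2(RPKM + 1). On that scale it was 0.4852 for responders against stable tumours, a call (limma adjusted p = 0.00956). The others were not called. In edgeR adjusted for protein-coding share, Pola2 was -0.1126 for responders against non-responders and -0.0587 against controls. In the same fit Chaf1a, Pold1 and Lig1 were -0.0197, -0.1224 and -0.0717 for responders against stable tumours. Without the low-count filter, Gins3 and Lig1 were -0.0172 and -0.0404 in that comparison, Pola2 and Pold1 were -0.0198 and -0.0515 for non-responders against controls, and Pola2 was -0.0181 for responders against controls. Without responders 1 and 4, Pold1 and Lig1 were -0.021 and -0.0198 against stable tumours. With only 2 groups, Pold1 was -0.0021 for non-responders against controls. Leaving out 1 tumour at a time, Gins3 ran from -0.0645 to 0.0807, Pold1 from -0.018 to 0.0928 and Lig1 from -0.0345 to 0.0564 for responders against stable tumours, and Pold1 from -0.0208 to 0.0727 for non-responders against controls.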
